A study of Gallus gallus with 38 samples.

Results

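The genes described here are *EPHB2*, *EPHB3*, *MYB*, *WIF1*, *SOX9* and *LGR5*, a group of 6 genes that are crypt genes, targets of Wnt signaling or both. They were taken by gene symbol, with the probe set of highest mean signal where a gene had several, and each of the 6 had exactly 1 probe set among the 11528 genes with a symbol of their own on the array. The mucosa of the jejunum and of the cecum was compared in 19 male Ross 308 broilers, a commercial meat-type chicken, with 1 microarray per bird and tissue and thus 38 arrays. All birds were vaccinated, received the same commercial diet in successive feeding phases and were slaughtered at 42 days (6 weeks) of age, so no treatment separated them and the only contrast was the tissue. The study's methods describe birds from several pens, chosen for even body weight and then for intact RNA in both tissues. Pen entered no test here. The mucosae were scraped off after rinsing. Such a sample holds the epithelium of villi and crypts together with lamina propria, and in it a lower number of cells of a type and less RNA per cell cannot be told apart. Bird numbers in the labels run from 1 to 19 for either tissue, and arrays that share one were read as a bird's own pair because the study's methods describe both mucosae of each selected bird. The treatment label instead speaks of 38 birds, and a general description line names oxyntic mucosa where the title, source and tissue labels all name cecum or jejunum.

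Crypts are the pits between the villi, and the stem cells at their base renew the whole intestinal epithelium. Wnt proteins secreted around the crypt bind Frizzled and LRP receptors on these cells and stabilize beta-catenin, which then switches on target genes together with TCF/LEF factors. Most of what is known of these genes in the gut comes from mouse and human, and the roles given below are those.

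Array medians lay between 5.57 and 5.75 on the log2 scale in the jejunum and between 5.65 and 5.74 in the cecum, and the median difference over all 18308 probe sets was 0.03, cecum minus jejunum. The 2 arrays of each tissue with the lowest mean correlation with the others are called the arrays that stood apart. The jejunal arrays of birds 19 and 2 had mean correlations of 0.949 and 0.957 with the other jejunal arrays, against a median of 0.973, and the cecal arrays of birds 3 and 2 had 0.919 and 0.970 against a median of 0.975. The tissue differences of the 6 genes and their correlations with each other and with marker lists were also computed without these arrays. The spreads of the 6 genes were compared over the array pairs of birds. They were therefore computed over all 19 birds and again without birds 2, 3 and 19, which left 16 birds.

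All 6 genes were higher in the cecum. They were chosen with earlier results of these data known, so the shares of all probe sets below give the scale and test nothing. A transcript was called a differentially expressed transcript (DET) when its fold change ratio (FCR) was at least 2 and its limma p, adjusted by Benjamini-Hochberg over all probe sets, was under 0.05, which were the thresholds of the study's methods. With these, 5 of the 6 genes were DETs of the cecum, where 3.62% of all probe sets were. *SOX9* passed the adjusted p but fell short of the fold. At any fold, 6 of 6 genes passed with higher values in the cecum, against 25.1% of all probe sets. The ranges of the tissues did not overlap for 4 genes, *EPHB2*, *EPHB3*, *MYB* and *WIF1*, against 1.22% of all probe sets, and these 4 were also higher in the cecum of every bird, against 4.69%. The counts of 5 DETs and of 6 genes passing at any fold were the same without the 4 arrays that stood apart. In a stricter test of whether the change itself exceeded 2-fold (limma's TREAT), 4 of the 6 genes passed, against 1.51% of all probe sets. *LGR5*, with an adjusted TREAT p of 0.0741, and *SOX9*, with 1.0, did not.

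**Figure D1:**
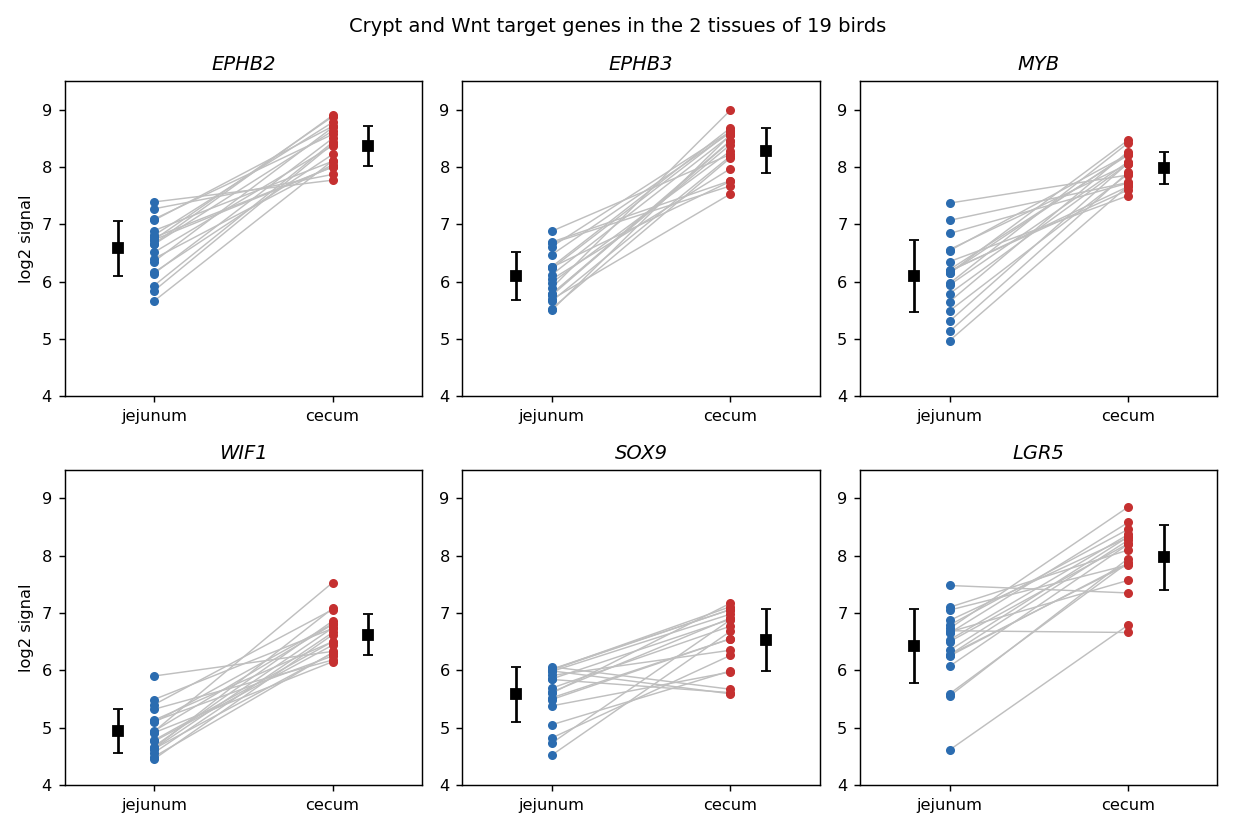
Log2 signal (y axis) of the 6 genes in jejunum and cecum, with 1 point per array and a grey line joining both arrays of a bird; black squares and bars are means ± SD of 19 birds. The tissues are fully apart for *EPHB2*, *EPHB3*, *MYB* and *WIF1*, and they overlap for *SOX9* and *LGR5*.

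*EPHB2* and *EPHB3* encode receptor tyrosine kinases that bind ephrin-B ligands on neighbouring cells. In the mouse they are Wnt targets that keep crypt cells in their place along the crypt-villus axis. The log2 signal of *EPHB2* ran from 5.66 through a median of 6.66 to 7.39 in the jejunum, and from 7.77 through 8.40 to 8.90 in the cecum. The lowest cecal array thus lay 0.38 above the highest jejunal array. The jejunal mean of 6.58 ± 0.48 (SD, n = 19) and the cecal mean of 8.37 ± 0.35 differed by 1.79 ± 0.13 (SE; 95% CI 1.52 to 2.05) or an FCR of 3.45 (limma, adjusted p = 3.5e-15). Within single birds the difference ranged from 0.38 in bird 17 to 2.56 in bird 18.

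*EPHB3* had the widest gap of the 6 genes. Its signal was 5.50, 6.04 and 6.88 (lowest, median and highest) in the jejunum and 7.53, 8.39 and 8.99 in the cecum, so that 0.65 log2 units separated the tissues at their nearest arrays. The mean moved from 6.09 ± 0.42 to 8.29 ± 0.40 (SD, n = 19), a difference of 2.19 ± 0.13 (SE; 95% CI 1.93 to 2.45) and an FCR of 4.57 (limma, adjusted p = 2.0e-18). It was the only one of the 6 genes whose difference reached 2-fold in each of the 19 birds, the smallest being 1.00 in bird 17 and the largest 3.10 in bird 10.

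The other Eph receptors and ephrins did not share differences of this size. Of the 15 measured genes of this family, 2 were DETs, *EPHB2* and *EPHB3* themselves. At any fold 8 passed toward the cecum and 1 toward the jejunum, where 25.1% and 20.1% of all probe sets passed. These shares, with 3.62% and 3.68% for DETs of the cecum and the jejunum, are the scale for all counts of families and markers below. Another receptor of the B class, *EPHB1*, had an FCR of 1.67 in the cecum (adjusted p = 9.3e-07), with 18 of 19 birds higher there. Among the ligands, the ephrin *EFNB1*, which binds EphB receptors, was 1.94-fold higher in the cecum and higher in 19 of 19 birds (limma, adjusted p = 4.5e-10). For *EFNB2*, with means of 5.88 and 5.79 in jejunum and cecum, no difference was detected (limma, adjusted p = 0.657). *EFNA5*, a ligand mainly of EphA receptors, was 1.96-fold higher in the jejunum (adjusted p = 1.4e-06).

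*MYB* encodes a transcription factor that mouse crypt progenitors need to keep dividing. In the jejunum its signal spread widely, from 4.97 through 6.15 to 7.37, and in the cecum it lay in a narrow band from 7.50 through 8.05 to 8.47. The tissues were only just apart, by 0.13 between the cecal array with the lowest signal and the jejunal array of bird 8. The difference of the means, 6.10 ± 0.63 and 7.98 ± 0.28 (SD, n = 19), was 1.88 ± 0.15 (SE; 95% CI 1.58 to 2.19), an FCR of 3.69 (limma, adjusted p = 5.7e-14). By bird it ran from 0.49 in bird 8 to 2.78 in bird 18. All 3 genes of the MYB family were higher in the cecum: *MYBL1* was a DET with an FCR of 2.46 (adjusted p = 1.3e-06), and *MYBL2*, a gene of dividing cells, had an FCR of 1.97 (adjusted p = 2.4e-07).

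*SOX9*, a transcription factor of the crypt base that in the mouse is needed for Paneth cells, moved least. Its jejunal signal ran from 4.52 through 5.69 to 6.06 and its cecal signal from 5.59 through 6.68 to 7.17. The tissues overlapped, with 12 jejunal arrays at or above the lowest cecal array and 5 cecal arrays at or below the highest jejunal one. The means of 5.58 ± 0.48 and 6.53 ± 0.54 (SD, n = 19) differed by 0.95 ± 0.16 (SE; 95% CI 0.63 to 1.26), an FCR of 1.93 (limma, adjusted p = 2.7e-06). In birds 8, 17 and 19 the jejunum was the higher tissue, with differences of -0.23, -0.40 and -0.39, and 13 of the 19 birds reached 2-fold. The call depended on single birds: *SOX9* became a DET when bird 8 (difference 1.01), bird 17 (1.02) or bird 19 (1.02) was left out, and when arrays were weighted by their quality (1.02).

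In the SOX family *SOX9* was not the gene with the largest difference. Of 12 measured SOX genes none was a DET of the cecum and 1 was a DET of the jejunum, where 3.68% of all probe sets were. This was *SOX6*, a transcription factor known from cartilage and muscle, with 7.69 ± 0.31 (SD, n = 19) in the jejunum against 5.04 ± 0.35 in the cecum. It was 6.25-fold higher in the jejunum and higher there in 19 of 19 birds (limma, adjusted p = 5.1e-24). At any fold 4 SOX genes passed toward the cecum, *SOX9* and, with FCRs from 1.24 to 1.38, *SOX4*, *SOX5* and *SOX7*.

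*LGR5* encodes a receptor for R-spondins, secreted proteins that strengthen the Wnt signal, and it marks the dividing stem cells of the mouse crypt base. Its signal was 4.61, 6.53 and 7.48 (lowest, median and highest) in the jejunum and 6.66, 8.10 and 8.85 in the cecum. The overlap came from few cecal arrays: 3 lay at or below the highest jejunal array, while 8 jejunal arrays lay at or above the lowest cecal one. The means were 6.42 ± 0.65 and 7.97 ± 0.56 (SD, n = 19), with a difference of 1.55 ± 0.19 (SE; 95% CI 1.17 to 1.93) and an FCR of 2.93 (limma, adjusted p = 3.2e-09). In 17 birds the cecum was higher. The exceptions were bird 19 (-0.13) and bird 3 (-0.03), whose jejunal and cecal arrays, respectively, were the least like their tissue. The difference was 1.61 without the first of these arrays, 1.62 without the second and 1.65 without all 4 arrays that stood apart.

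Of 16 measured Wnt receptors and co-receptors *LGR5* was the only DET, and 7 passed at any fold toward the cecum and 1 toward the jejunum. The latter was its paralog *LGR4*, which was 1.38-fold higher in the jejunum (adjusted p = 0.00575). *LGR6*, the third of these receptors, was at 4.25 and 4.23 in jejunum and cecum (adjusted p = 0.884). Among the Frizzled receptors *FZD1*, *FZD4* and *FZD6* were 1.91-fold, 1.79-fold and 1.76-fold higher in the cecum, each with 18 of 19 birds higher. The R-spondins measured, *RSPO1*, *RSPO2* and *RSPO4*, differed between the tissues by 0.00, -0.05 and 0.02 on the log2 scale, with adjusted p of 0.689 or more. Their means were 4.51, 3.59 and 3.36 in the jejunum and 4.51, 3.54 and 3.38 in the cecum. Whether these low signals stood above background is not known.

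*WIF1* encodes a secreted inhibitor that binds Wnt proteins outside the cell and is itself a Wnt target in several mammalian tissues. The signal ran from 4.45 through 4.91 to 5.90 in the jejunum and from 6.15 through 6.62 to 7.53 in the cecum, 0.25 apart at the nearest arrays. The highest jejunal array was that of bird 19, the one least like its tissue. The means were 4.94 ± 0.39 and 6.62 ± 0.36 (SD, n = 19), a difference of 1.69 ± 0.12 (SE; 95% CI 1.45 to 1.92) or an FCR of 3.22 (limma, adjusted p = 5.5e-16). The difference of single birds ran from 0.43 in bird 19 to 2.60 in bird 6. No detection call was used, so whether the jejunal signal stood above background is not known; if it did not, the FCR is a lower limit.

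*WIF1* was 1 of 2 secreted Wnt antagonists, of 14 measured, that were DETs of the cecum. The other was *FRZB*, a decoy receptor for Wnt proteins, with means of 4.68 ± 0.34 and 6.48 ± 0.56 (SD, n = 19), an FCR of 3.49 and 19 of 19 birds higher (adjusted p = 4.0e-14). *SOSTDC1*, which antagonizes Wnt and BMP signals, was the only DET of the jejunum, 2.43-fold higher there (adjusted p = 5.1e-12). *DKK3* was 1.65-fold higher in the jejunum (adjusted p = 1.4e-07), and *NOTUM*, an enzyme that inactivates Wnt proteins and is a Wnt target itself, was 1.71-fold higher in the cecum, with no overlap between the tissues (adjusted p = 7.4e-11).

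Among the 14 Wnt ligands and R-spondins measured, *WNT5A*, best known for signals that do not pass through beta-catenin, was the only DET. It rose from 5.95 ± 0.67 in the jejunum to 7.64 ± 0.43 in the cecum (SD, n = 19), with an FCR of 3.23 and 19 of 19 birds higher (adjusted p = 5.9e-11). At any fold 3 ligands, *WNT4*, *WNT5A* and *WNT5B*, passed toward the cecum and 1, *WNT11*, toward the jejunum. Of all probe sets 25.1% and 20.1% passed in these directions, so the ligands and R-spondins did not stand out as a family. Several had low means, such as *WNT7A* with 3.06 in the jejunum and 3.19 in the cecum. Whether such signals stood above background is not known. Of 20 measured genes acting inside the cell, 3 were DETs of the cecum. These were *WLS*, the carrier that Wnt proteins need for their secretion (FCR 3.91, adjusted p = 3.7e-16), *AXIN2*, a scaffold of the beta-catenin destruction complex and a Wnt target (2.32, adjusted p = 3.6e-11), and *PYGO1*, a beta-catenin cofactor (2.17, adjusted p = 1.6e-11). At any fold 8 passed toward the cecum, among them *CTNNB1*, which encodes beta-catenin (FCR 1.45, adjusted p = 2.3e-08), and 2 toward the jejunum. The latter were *TLE3*, a corepressor that binds TCF factors, which was 1.44-fold higher in the jejunum and higher there in 19 of 19 birds (adjusted p = 4.6e-07), and *TCF7L2*, a TCF factor itself (1.24-fold, adjusted p = 0.0023).

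**Figure D2:**
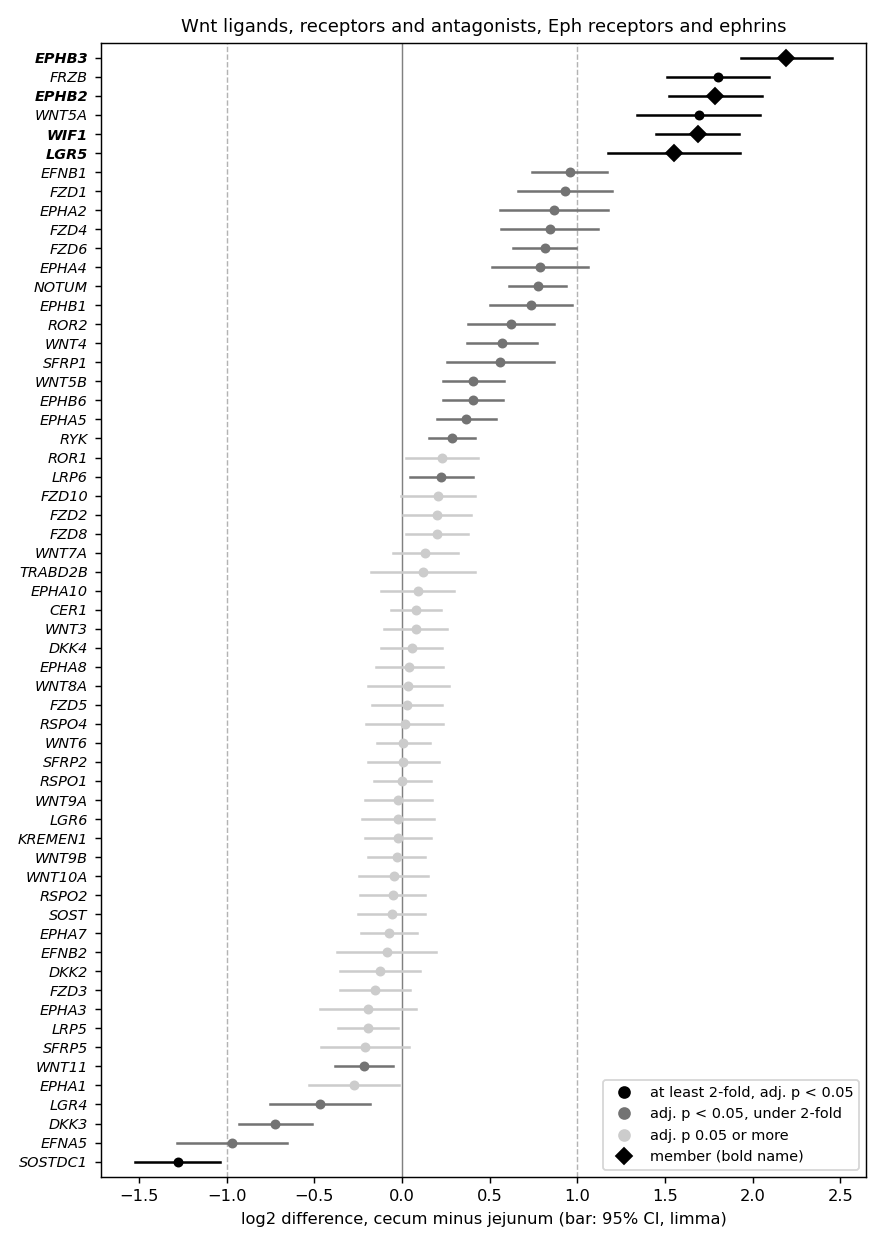
Log2 difference between the tissues (x axis, cecum minus jejunum, 38 arrays) of measured Wnt ligands, receptors, secreted antagonists, Eph receptors and ephrins, with 95% confidence intervals from limma; dashed lines mark 2-fold, diamonds and bold names the genes described here. *EPHB3*, *FRZB*, *EPHB2*, *WNT5A*, *WIF1* and *LGR5* lie above 2-fold toward the cecum and *SOSTDC1* toward the jejunum.

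The 6 genes were set beside wider lists of crypt markers and Wnt targets, which hold them as well, except that *WIF1* is only on the list of Wnt targets. Of 18 measured crypt stem and progenitor markers, 7 were DETs, each of them cecal, with a median difference of 0.64 against 0.03 over all probe sets. Left without the genes described here, the list had 13 members, a median of 0.22 and 3 DETs. These were *SMOC2*, an extracellular protein of mouse crypt base cells (FCR 2.50, adjusted p = 2.2e-12), *SLC12A2*, an ion transporter of the crypt (2.31, adjusted p = 6.1e-08), and *CDCA7*, a nuclear protein of dividing cells (2.18, adjusted p = 3.3e-07). At any fold 11 of the 18 markers passed toward the cecum and 2 toward the jejunum, and 6 and 2 of the 13. Under 2-fold, *TNFRSF19*, *RNF43* and *CDK6* passed toward the cecum, with FCRs of 1.80, 1.34 and 1.27 (limma, adjusted p = 1.1e-04, 1.2e-06 and 0.0127). Other markers of stem cells had the other sign or did not pass. *OLFM4* was 1.57-fold higher in the jejunum (adjusted p = 5.7e-04), as was *PROM1* by 1.25-fold (adjusted p = 0.0314). *ASCL2*, a transcription factor of mouse crypt stem cells, was at 4.91 ± 0.33 and 5.12 ± 0.37 in jejunum and cecum (SD, n = 19; adjusted p = 0.112).

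Of 22 measured Wnt target genes, 8 were cecal and 0 were jejunal DETs, and 14 and 1, respectively, passed at any fold. Outside the 6 genes, 16 targets remained with a median difference of 0.32 and with *PPARD*, *AXIN2* and *NKD1* as DETs. *PPARD* had an FCR of 4.34, with 19 of 19 birds higher in the cecum (limma, adjusted p = 9.2e-25). Its tissues lay 1.24 apart at the nearest arrays, farther than those of any of the 6 genes. *NKD1*, a feedback inhibitor of the pathway, reached an FCR of 2.14, with 19 of 19 birds higher in the cecum (adjusted p = 1.9e-10). *MYC* and *CCND1*, which drive cell division, were 1.43-fold and 1.32-fold higher in the cecum (adjusted p = 1.8e-05 and 0.0237). *LEF1* was at 5.23 and 4.99 and *CD44* at 8.00 and 7.81 in jejunum and cecum, and neither passed the test. The Notch pathway, which in mammals sets the absorptive or secretory fate of crypt cells, had no DET among 14 measured genes, with 5 passing toward the cecum and 3 toward the jejunum at any fold. The secretory regulators *GFI1* and *SPDEF* were among the latter, 1.67-fold and 1.51-fold higher in the jejunum (adjusted p = 1.2e-12 and 6.1e-04).

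**Figure D3:**
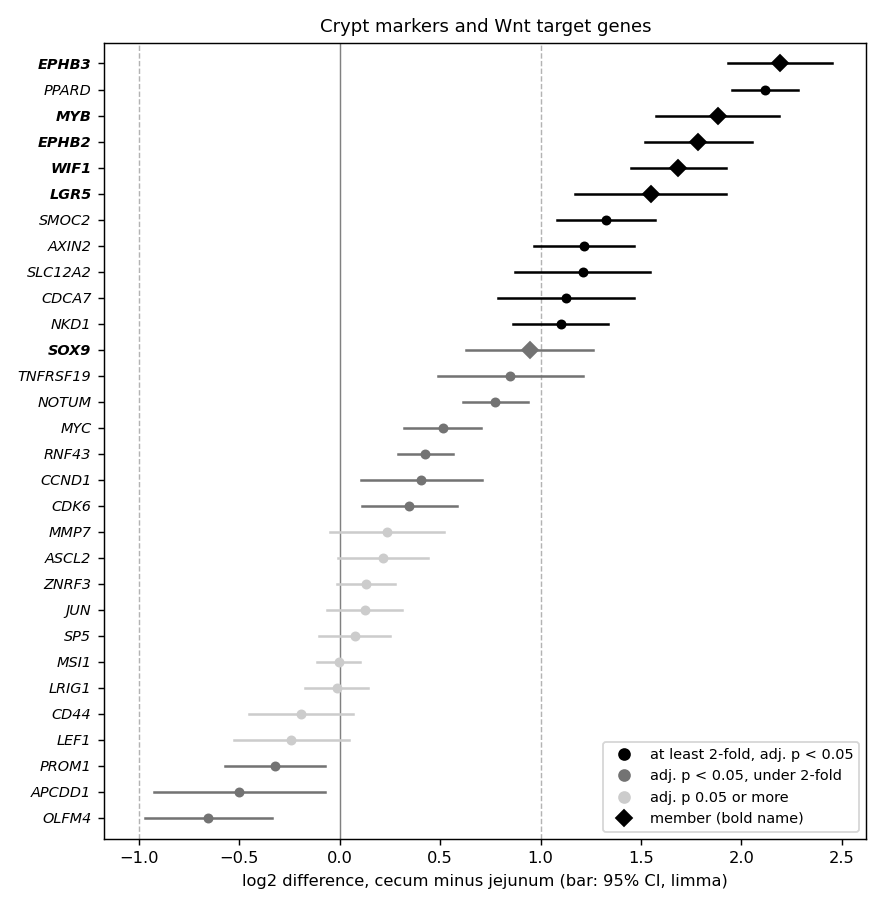
Log2 difference between the tissues (x axis, cecum minus jejunum, 38 arrays) of the crypt markers and Wnt target genes measured, with 95% confidence intervals from limma; dashed lines mark 2-fold, diamonds and bold names the 6 genes described here. *EPHB3* is at the top with 2.19, *SOX9* lies just under 2-fold, and *OLFM4*, *APCDD1* and *PROM1* are on the side of the jejunum.

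Genes of cell division and markers of the differentiated enterocyte also differed between the tissues, in opposite directions. Of 21 measured genes of cell division, 15 were DETs of the cecum and 20 passed at any fold, with a median difference of 1.31, and the mitotic kinases *PLK1* and *AURKB* had the highest FCRs, 3.38 and 3.32. The mean signal of the list per array was 5.14 to 7.26 in the jejunum and 6.77 to 7.69 in the cecum. In the jejunum birds 8 and 19 had 7.22 and 7.26, and the next array had 6.58. Of 16 measured markers of the differentiated enterocyte, the absorptive cell of the villus, 15 were DETs of the jejunum and 16 passed at any fold, *APOB* with an FCR of 172 and *ENPEP* with 130 in the lead. Their mean was 9.07 to 11.2 in the jejunum, lowest in bird 19, and 4.95 to 7.22 in the cecum. The arrays labelled jejunum were the ones with high enterocyte markers. This list was written with earlier results of these data known, so it is no independent check of the labels. No list of cecal markers was used, so how many differentiated absorptive cells the cecal samples held was not measured.

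Tissue beneath the epithelium differed as well. Of 6 measured smooth muscle markers 4 were DETs of the cecum, with array means of 5.12 to 8.26 in the jejunum and 6.91 to 8.79 in the cecum. Of 9 fibroblast markers 6 were DETs of the cecum, with 5.12 to 8.33 and 7.40 to 8.89. Bird 2 had the lowest jejunal mean of both lists, and also the lowest jejunal signal of *EPHB2*, *MYB*, *WIF1* and *LGR5*. Of 10 T cell markers 5 were DETs of the jejunum, with 7.09 to 7.97 and 5.94 to 7.02. The smaller lists were mixed, each with a single DET, which was higher in the cecum. Of 7 B cell markers 3 passed toward the cecum at any fold, with *EBF1* as the DET (FCR 2.13), and 1 toward the jejunum. Of 8 markers of enteric neurons and glia 4 passed toward the cecum, with *S100B* as the DET (3.83), and 2 toward the jejunum. Of 5 endothelial markers 4 passed toward the cecum, with *VWF* as the DET (3.10). Of 3 erythroid markers only *CA2* passed (3.09), and the median difference of the list was 0.01. Which cells gave the *CA2* signal was not tested. Of 6 general epithelial markers 5 passed toward the cecum at any fold. *CDX2*, an intestinal transcription factor, was the only DET (FCR 2.33), and *EPCAM*, an adhesion protein of all epithelial cells, was at 11.44 and 11.53 in jejunum and cecum (adjusted p = 0.34). What part these cells had in the differences of the 6 genes was not tested.

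The birds differed in how far their tissues lay apart. All 6 genes were higher in the cecum in 15 birds and at least 2-fold higher in 10 birds. Over the 6 genes the median difference of a bird was smallest in bird 19 (0.52), followed by birds 17 (0.94) and 8 (1.14), and it was largest in bird 6 (2.38). In bird 19 only *EPHB3* reached 2-fold, and its jejunal array had the highest jejunal signal of *EPHB3*, *WIF1*, *SOX9* and *LGR5*. This was also the jejunal array with the highest mean of division genes and the lowest mean of enterocyte markers. Its mean of B cell markers was 8.63, where the next jejunal array had 7.14, its mean of *MYBL1* and *MYBL2* was 7.69, where the next had 6.42, and its mean of T cell markers, 7.97, was the highest of the jejunum as well. What part these cells had in the levels of this array was not tested.

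No relation was detected between a bird's jejunal and cecal levels. Between the jejunal and the cecal signal of the 19 birds, Pearson's r ran from -0.14 for *EPHB3* to 0.28 for *LGR5*, against a median of 0.11 over all probe sets. None of the 6 correlations passed (permutation tests, adjusted p of 0.889 or more for Pearson's r and 0.945 for each Spearman's rho). For *LGR5*, r was -0.15 without the 2 birds farthest from the jejunal median.

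Within a tissue, most pairs of the 6 genes correlated from bird to bird, and 11 of 30 did not pass. All 15 pairs in each tissue had r above 0, from 0.17 to 0.77 among jejunal and from 0.18 to 0.79 among cecal arrays. After adjustment over the 30 tests, 9 pairs passed in the jejunum and 10 in the cecum by permutation of the birds, and 8 of these passed in both tissues. The lowest r that passed was 0.50 in either tissue, and 6.85% of all gene pairs of the array reached it in the jejunum and 11.3% in the cecum, while r was above 0 for 49.5% and 49.9% of them. With Spearman's rho 15 of the 30 passed. Without the 2 birds farthest from the median of 1 gene of the pair 12 did. That gene was the earlier one in the order of the opening, and birds extreme only in the other gene stayed in. Without the 2 arrays of each tissue that stood apart (birds 2 and 19 in the jejunum, birds 2 and 3 in the cecum) 12 passed as well. The jejunal pairs of *WIF1* with *EPHB2*, *EPHB3* and *MYB* then had r of -0.26, -0.02 and -0.16. All other pairs stayed above 0 in that setting. Without the 2 farthest birds, *EPHB2* with *WIF1* in the jejunum had r of -0.03.

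*EPHB2* and *MYB* were closely tied in both tissues. In the jejunum r was 0.77 and rho 0.69 (permutation tests, adjusted p = 0.00126 and 0.00544), and r was 0.64 without the 2 farthest birds. In the cecum r was 0.79 and rho 0.78 (adjusted p = 0.00126 and 0.00157), and r was 0.77 without the 2 farthest birds. *EPHB3* and *SOX9* formed a second such pair. Their r was 0.74 in the jejunum and 0.77 in the cecum, with rho of 0.81 and 0.73 (permutation tests, adjusted p for r = 0.00154 and 0.00126, for rho = 0.00157 and 0.00335), and without the 2 farthest birds r was 0.75 and 0.70.

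*LGR5* went with *MYB* most clearly in the cecum, where r was 0.75 and rho 0.76 (permutation tests, adjusted p = 0.00126 and 0.00157) and r was 0.66 without the 2 farthest birds. In the jejunum the same pair had r of 0.51 and rho of 0.41 (adjusted p = 0.0468 and 0.119), and r fell to 0.17 without the arrays of birds 2 and 19. The jejunal pairs of *LGR5* with *EPHB2* and *WIF1* were lost by rho, without the 2 farthest birds and without these arrays too. Whether any of these correlations differed between the tissues was not tested. *WIF1* was the gene least tied to the others, with 1 of its 5 pairs passing in the jejunum and 2 in the cecum, none of which passed without the 2 farthest birds.

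**Figure D4:**
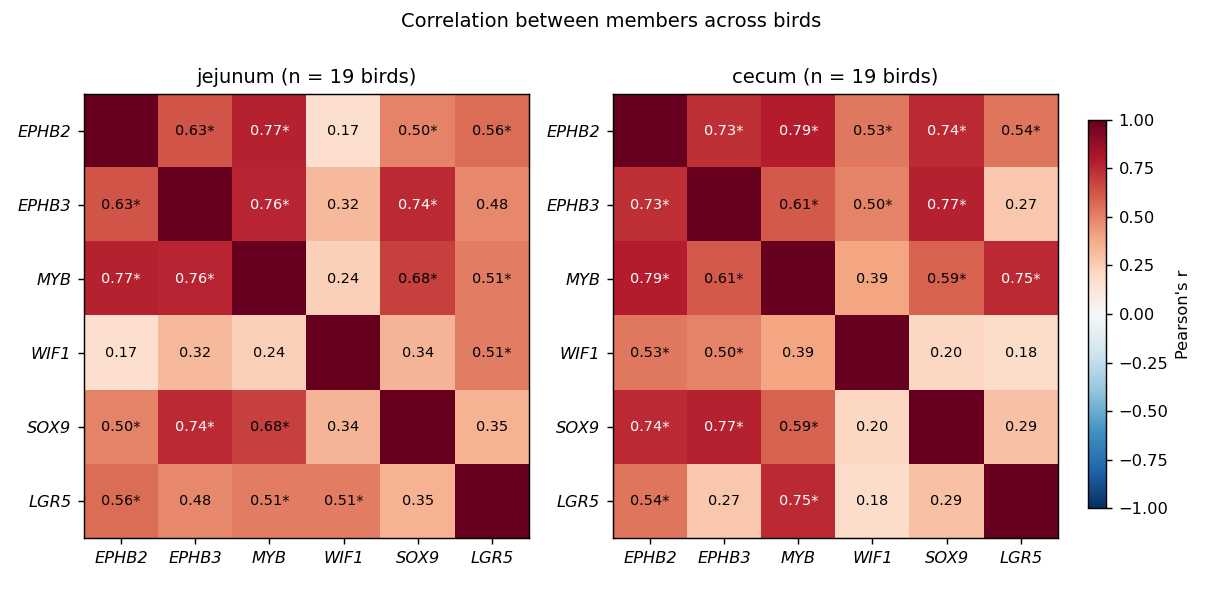
Pearson's r between the log2 signals of each pair of genes across 19 birds, in the jejunum (left) and the cecum (right); colour gives r from -1 to 1 and an asterisk an adjusted permutation p under 0.05. All values are above 0, and the lowest of each tissue, 0.17 and 0.18, are in the row of *WIF1*, while *EPHB2* with *MYB* and *EPHB3* with *SOX9* are high in both tissues.

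The spread between birds differed detectably between the tissues only for *MYB*. Its SD of 0.63 over jejunal and 0.28 over cecal arrays gave a ratio of 2.22, where the median ratio over all probe sets was 0.946. The spreads were compared through the correlation of a bird's sum with its difference, which is 0 when they are equal. For *MYB* r was 0.66 and rho 0.59 (permutation tests over 19 birds, adjusted over 6 genes, p = 0.0118 and 0.0494), and without the 2 farthest birds r was 0.54 (adjusted p = 0.169). The ratios of the other 5 genes, from 0.895 for *SOX9* to 1.37 for *EPHB2*, did not pass.

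The 6 genes were then compared with the mean of the 21 division genes within each tissue, in a family of 60 correlations that also held the means of enterocyte, smooth muscle, fibroblast and T cell markers. With division genes, *EPHB2*, *EPHB3*, *MYB* and *SOX9* passed in both tissues, also by rho and without the 2 farthest birds, and *WIF1* and *LGR5* passed in neither. Without the arrays that stood apart (birds 2 and 19 in the jejunum, birds 2 and 3 in the cecum) the same genes passed except for *SOX9* in the jejunum (r = 0.51, rho = 0.68; permutation tests, adjusted p = 0.0994 and 0.02). *MYB* had the highest value, with r of 0.92 and rho of 0.91 in the jejunum. Both had a permutation p of 1.0e-05, the smallest that 100000 permutations can give (adjusted p = 6.0e-04). Its r was 0.90 without the 2 farthest birds and 0.93 without the arrays of birds 2 and 19. In the cecum its r was 0.76 and its rho 0.78 (permutation tests, adjusted p = 9.6e-04 and 0.00195). For *LGR5* r was 0.44 and 0.32 in jejunum and cecum (permutation tests, adjusted p = 0.111 and 0.234), and for *WIF1* it was 0.23 and 0.35 (0.381 and 0.192).

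**Figure D5:**
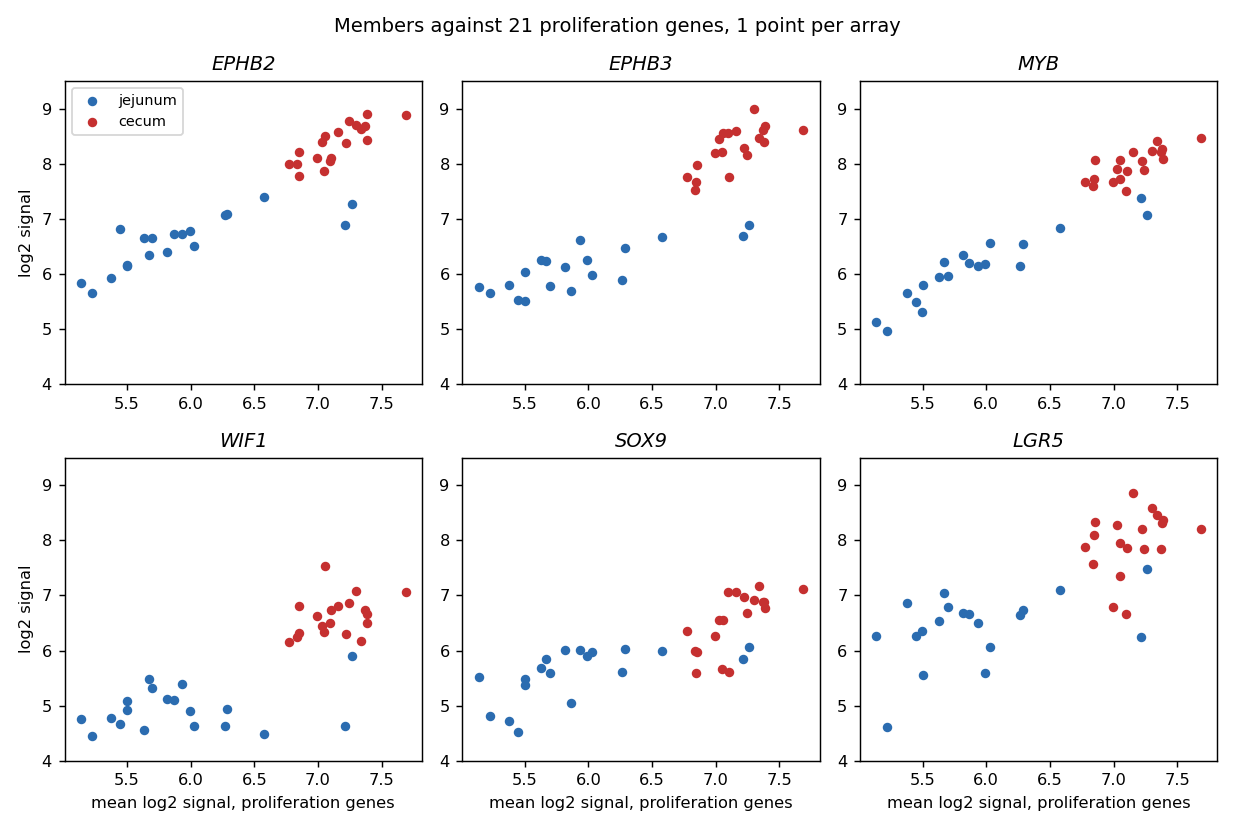
Log2 signal of the 6 genes (y axis) against the mean log2 signal of 21 genes of cell division (x axis), 1 point per array, with jejunum in blue and cecum in red. *MYB* rises steadily with the division genes in the jejunum (r = 0.92), and the 2 jejunal arrays farthest to the right are those of birds 8 and 19.

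Correlations with markers of the tissue beneath the epithelium were all above 0, but in the jejunum fewer passed by rho or with birds or arrays left out. The settings with birds or arrays left out test 17 birds in place of 19. Why fewer passed was not tested. With the smooth muscle mean 5 of the 6 genes passed among jejunal arrays, and 2 did by rho, 2 without the 2 farthest birds and 1 without the arrays of birds 2 and 19. With the fibroblast mean 5 passed there, and 4, 4 and 1 did under the same changes. By rho, *EPHB3*, *WIF1* and *LGR5* fell just short with the jejunal smooth muscle mean (permutation tests, adjusted p = 0.0645, 0.053 and 0.0512). Among cecal arrays 4 genes passed with the smooth muscle mean and 3 with the fibroblast mean, and the arrays of birds 2 and 3 left out gave 3 and 4. The genes changed too. With smooth muscle, *MYB* and *LGR5* no longer passed and *EPHB3* did (permutation tests, adjusted p = 0.0581, 0.166 and 0.048). With fibroblasts, *EPHB3* was added (adjusted p = 0.0351). *EPHB2* with the fibroblast mean had r of 0.76 and rho of 0.75 in the jejunum and 0.66 and 0.73 in the cecum (permutation tests, adjusted p for r = 0.0012 and 0.00769, for rho = 0.00309 and 0.00378). *WIF1*, which did not pass with division genes, had r of 0.67 and rho of 0.64 with the fibroblast mean in the cecum (permutation tests, adjusted p = 0.00626 and 0.0132), and r was 0.72 without the 2 farthest birds. In the jejunum its r of 0.49 did not pass (adjusted p = 0.0637). With enterocyte markers r was below 0 for all 6 genes in both tissues, and 3 passed among jejunal arrays, *EPHB3*, *MYB* and *WIF1*. Only *MYB* did so by rho or without the 2 farthest birds, and none did without the arrays of birds 2 and 19. In the cecum *EPHB3* alone passed, and it did not by rho (adjusted p = 0.111), without the 2 farthest birds (adjusted p = 0.0555) or without the arrays of birds 2 and 3 (adjusted p = 0.0994). With T cell markers only *MYB* in the jejunum passed (r = 0.55, rho = 0.45; permutation tests, adjusted p = 0.0309 and 0.106), and no gene did without the 2 farthest birds.

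The genes of the array whose signal was most like that of each member were found by Pearson's r over the 38 arrays after removal of the tissue means, among 11527 other genes. These values are a description, and no test was made. Arrays of a tissue differed in their marker means, such as 5.12 to 8.33 for fibroblasts in the jejunum. What part the cell mixture had in these values was not tested. For *MYB* they were the mitotic genes *CCNB1*, *FAM83D* and *NUSAP1*, each with r of 0.90. For *EPHB2* they were *ACTN1*, an actin cross-linker (0.84), *FAM83D* (0.82) and the collagen gene *COL1A1* (0.82). *EPHB3* was most like *FEN1* (0.81) and *MCM3* (0.80), which act in DNA replication, and *ANP32B* (0.78).

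*SOX9* was most like *MYC* (0.83), *HDGF* (0.79) and the chromatin remodeler *SMARCC1* (0.78). Of the other members, *EPHB3* stood at place 7 in the order of *SOX9*, and *SOX9* at place 14 in that of *EPHB3*. *WIF1* was most like *ITGB3*, an integrin (0.70), *SH3RF3* (0.68) and *OSR1*, a transcription factor of mesoderm (0.67), and the nearest of the other members, *EPHB3*, came at place 634.

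*LGR5* was most like *APCDD1*, a membrane protein that is induced by Wnt signals and inhibits them (0.85), then *HNRNPR* (0.81) and *ADGRL2* (0.79). *APCDD1* followed *LGR5* across birds in both tissues, with r of 0.88 in the jejunum and 0.80 in the cecum, but its tissue difference had the other sign. Its mean was 6.94 ± 0.75 in the jejunum and 6.44 ± 0.62 in the cecum (SD, n = 19), 1.41-fold higher in the jejunum and just inside the threshold (limma, adjusted p = 0.0499), with 14 of 19 birds higher there.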

How the data were processed

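Mucosal RNA of 19 birds was hybridized to the GeneChip Chicken 1.0 ST Array, 1 array per bird and tissue. Per the methods, the authors analysed the scans in the Transcriptome Analysis Console (4.0.1.36); how the background was corrected and how probes were normalized and summarized is not stated in those sources. The authors deposited log2 signals of 18308 probe sets, rounded to 2 decimals, which were used as they stood. The platform annotation gave 1 symbol to 12300 probe sets, several to 256 and none to 5752; only the first were named. Arrays have no read depth, so their number limits precision, and signals of different probe sets were not compared as levels.

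Tissues were compared with limma 3.58.1 (R 4.3.3; moderated linear models by lmFit and eBayes with no term besides tissue, all 38 arrays, Benjamini-Hochberg over all probe sets), after a test on simulated data. A positive difference is cecum minus jejunum. Arrays with the same bird number came from 1 bird per the methods; their deviations from the tissue means correlated by 0.114 on average (range -0.133 to 0.411), against -0.006 between birds, and bird was a block in an alternative fit. Correlations over birds used two-sided permutation tests (100000 permutations; Python 3.11.15, numpy 2.4.6, scipy 1.17.1), with Benjamini-Hochberg within each family of 30, 60 or 6 tests. The 2 farthest birds of a correlation were chosen by their distance from the median of 1 of its variables, not of both. Alternatives were other normalizations, a filter at a mean of 5, no moderation, TREAT, array weights, the mean of a gene's probe sets, and each bird left out. The members and the 20 gene lists were chosen with earlier results of these data known, and the list of epithelial markers and the settings without arrays that stood apart were added last. Named genes were all members, up to 4 DETs of largest fold per list and direction, members of the Wnt, crypt, Eph, SOX, MYB and Notch lists (with any fold), and the 3 genes most like each member.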

Additional observations from a re-analysis of the deposited data

How the results depend on the processing

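Over the 30 other settings of the tissue comparison no direction turned. With the bird block, the filter, no moderation, TREAT or the probe set mean, the difference equals the main one by construction. These settings could move only the adjusted p. Most of the others left out 1 bird each. The log2 difference stayed within 1.73 to 1.86 for *EPHB2*, 2.14 to 2.27 for *EPHB3*, 1.83 to 1.96 for *MYB*, 1.63 to 1.76 for *WIF1*, 0.88 to 1.02 for *SOX9* and 1.50 to 1.65 for *LGR5*. With each bird left out in turn it ran from 1.74 to 1.86, 2.14 to 2.26, 1.83 to 1.96, 1.63 to 1.76, 0.88 to 1.02 and 1.50 to 1.64, in the same order, the number of DETs was 5 to 6 and the number passing at any fold 6 in each case. With the replicate block for bird, 5 genes were DETs and 6 passed, no call changed, and *SOX9*, the weakest, had an adjusted p of 1.1e-05. The number of pairs of genes that correlated within a tissue was the result that moved most, from 19 to 12 without the 2 farthest birds and to 12 without the arrays of each tissue least like their tissue, a setting chosen after seeing the data. Both settings test 17 birds in place of 19. Without the arrays least like their tissue r itself moved both ways. For *MYB* with *LGR5* in the jejunum it went from 0.51 to 0.17. For *SOX9* with *LGR5* in the cecum it went from 0.29 to 0.61. Why the number of pairs fell was not tested. The precision is limited by 19 birds per tissue and by the lack of a detection call, so how far the lower signals, such as those of *WIF1* in the jejunum, stood above background was not tested.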
